A study of Mus musculus with 8 samples.

Results

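The genes described here are 10 members of the epidermal growth factor (EGF) system: the ligands Egf, Areg, Tgfa, Ereg, Hbegf, Btc and Nrg1 and the receptors Egfr, Erbb2 and Erbb3. They were taken by gene symbol from the 21626 genes of a mouse expression array study, and each was measured by 1 probe set. The genes were chosen with earlier results of these data known. The 4 primary gastric adenocarcinomas, frozen fresh, came from mice with a transgene that were watched for spontaneous gastric cancer, and the 4 samples they were set against are labelled normal gastric mucosa. The labels name no transgene, allele, strain, sex, age or treatment, and do not say whether the samples came from separate animals or whether the normal samples came from transgenic mice. Each p-value below thus reflects how much these 8 samples vary, and some of that variation may be technical.

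EGF family ligands are made as membrane-anchored precursors, which proteases of the ADAM family cut to release the active factor. Most of them bind EGFR, the neuregulins bind ERBB3 and ERBB4, and HB-EGF and betacellulin bind EGFR and ERBB4. ERBB2 has no known ligand of its own and signals as the partner of the other receptors. In the stomach, TGF-alpha and amphiregulin are known products of parietal cells, and signalling through EGFR restrains acid secretion and drives growth of the surface mucous lineage.

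The unit is the log2 expression value from RMA, which subtracts background, gives every array the same distribution of intensities and combines the probes into 1 value per probe set. They were deposited with 1 decimal. Array medians were 7.8 to 7.9 in adenocarcinoma against 7.9 to 8.0 in normal mucosa, and the medians of background control probes were 6.0 to 6.2 and 6.2 to 6.4. All 10 members lay above their array's background median on all 8 arrays. Exon control probes exceeded intron control probes, which gauges array quality, by 3.9 to 4.5 in adenocarcinoma against by 3.6 to 4.0 in normal mucosa; its part in the results was not tested. The labelled tissues were checked against marker genes. General epithelium markers averaged 13.1 to 13.2 in adenocarcinoma against 12.9 to 13 in normal mucosa, and parietal cell markers averaged 7.64 to 8.04 in adenocarcinoma against 11.6 to 11.8 in normal mucosa. Xist, which is made from the inactive X chromosome, was at 6.2 to 6.6 in adenocarcinoma against at 11.6 to 12.7 in normal mucosa, and the Y-linked Ddx3y at 9.5 to 11.0 in adenocarcinoma against at 6.2 to 6.6 in normal mucosa. Sex and tissue cannot be told apart in the differences below.

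The comparison asked which EGF family genes differ between adenocarcinoma and normal mucosa. Among the 7 ligands, Ereg and Hbegf rose, Egf, Areg and Tgfa fell, and Btc and Nrg1 were not called. None of the 3 receptors was called. A gene was called at an adjusted p under 0.05 in limma, with Benjamini-Hochberg adjustment over all 21626 genes. The 5 called members stand against a background of 41.8% of all genes called, 18.2% higher and 23.6% lower, so the share of members called is near that of the array as a whole. The same 5 members had groups that did not overlap, against 34.3% of all genes, 15.8% with adenocarcinoma higher and 18.5% with it lower. The median difference, adenocarcinoma minus normal mucosa, was 0.225 on the log2 scale over the 10 members and -0.1 over all genes. Without adenocarcinoma replicate 3 the number of members called higher was 4 instead of 2, since Btc (0.642 ± 0.15 SE, adjusted p = 0.0123) and Egfr (0.483 ± 0.164, adjusted p = 0.0467) passed.

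**Figure D1:**
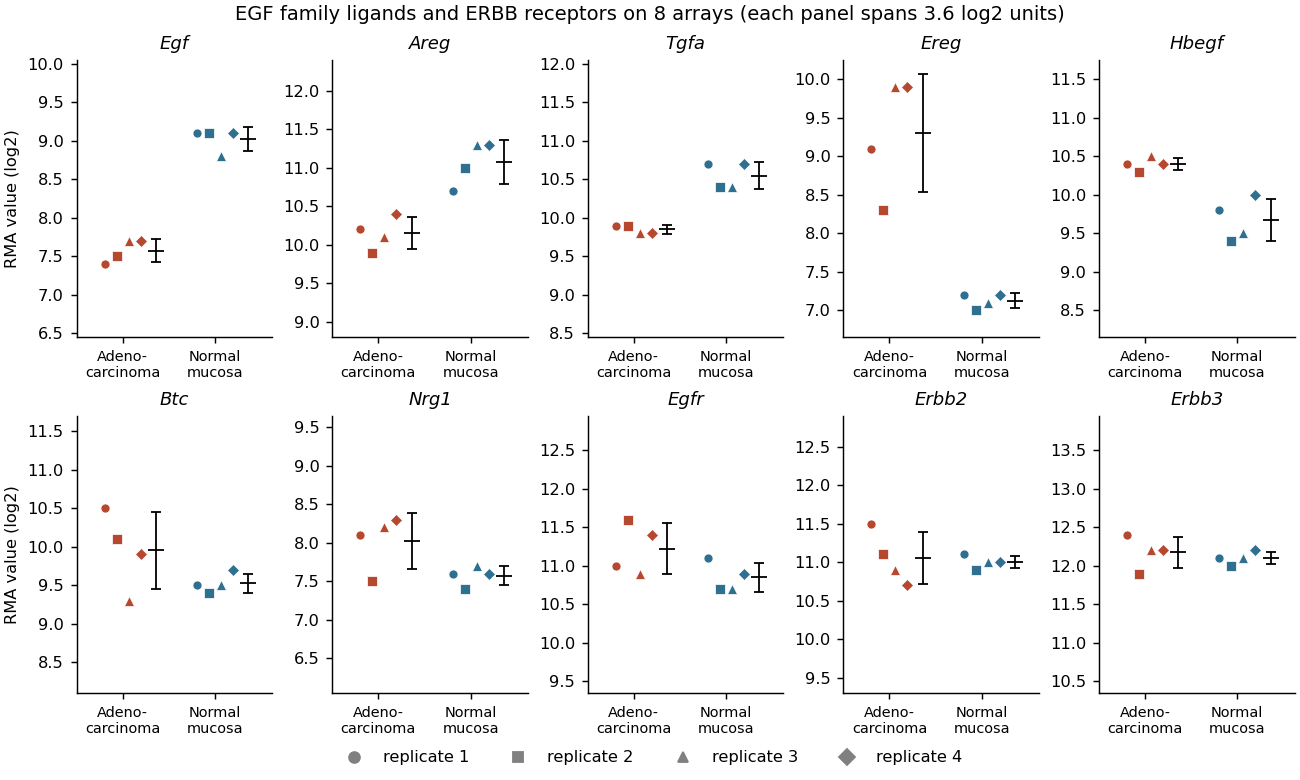
RMA values (log2) of the 10 genes on each of the 8 arrays, with the mean and SD of each group (n = 4) to the right of its points; every panel spans the same number of log2 units. Ereg lies at 8.3 to 9.9 in adenocarcinoma against 7.0 to 7.2 in normal mucosa, while the points of the groups overlap for Btc, Nrg1, Egfr, Erbb2 and Erbb3.

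Array scaling can move the differences, so each was read under 4 other scalings. The 3 centrings add a constant to each array, while cyclic loess moved some members up and others down. The median difference of all genes was -0.238 after median centring, -0.00559 after cyclic loess, 0.0771 after centring on olfactory and vomeronasal receptor genes, and -0.3 after centring on 4 general epithelium markers (Epcam, Krt8, Krt18 and Krt19). Calls over all genes were 3942 higher and 5099 lower as deposited, 3054 and 9272 after median centring, 3923 and 3239 with cyclic loess, 5171 and 1577 when receptor genes were the centre, and 2723 and 10539 when epithelium markers were. Egf, Areg, Tgfa, Ereg and Hbegf kept their direction and their call under all 4 of these scalings. Nrg1 was called under a pair of them, at 0.576 (adjusted p = 0.0188) with cyclic loess and at 0.627 (adjusted p = 0.0115) with receptor genes as the centre.

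**Figure D2:**
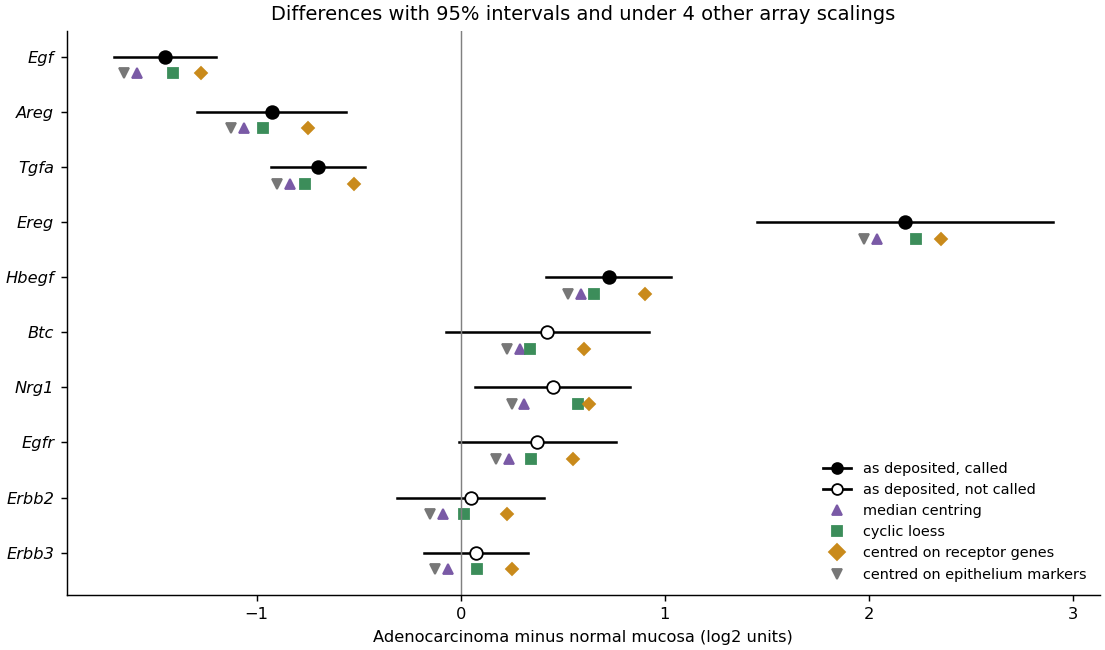
Difference of each gene, adenocarcinoma minus normal mucosa, in log2 units: circles and lines give the limma estimate and its 95% interval (filled where called), and the smaller symbols below them the estimate under 4 other array scalings. Ereg at 2.17 and Egf at -1.45 lie farthest from 0; the uncalled Erbb2 and Erbb3 change sign with median centring (-0.088 and -0.062) and with centring on epithelium markers (-0.15 and -0.125).

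Egf encodes epidermal growth factor itself, cut from a long membrane precursor. Its probe set (10502105) is placed on chromosome 3, 129380492 to 129458234, by the deposited table, for whose positions the sources used here state no genome build. Egf was at 7.4, 7.5, 7.7 and 7.7 in adenocarcinoma, against 9.1, 9.1, 8.8 and 9.1 in normal mucosa. All 4 adenocarcinomas lay below every normal sample, and the spread within each group was small. The means were 7.58 ± 0.15 and 9.03 ± 0.15 (SD, n = 4 each). The difference was -1.45 ± 0.111 (SE), a level 2.73-fold lower (limma adjusted p = 2.37e-05). Only 330 of the 21626 genes had a more negative difference.

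Areg encodes amphiregulin, a heparin-binding EGFR ligand. Its probe set (10523182) lies on chromosome 5 from 91568625 to 91577458. Areg was at 10.2, 9.9, 10.1 and 10.4 in adenocarcinoma, against 10.7, 11.0, 11.3 and 11.3 in normal mucosa. The groups did not overlap, but the highest adenocarcinoma and the lowest normal sample were close. The difference was -0.925 ± 0.16 (1.90-fold lower; limma adjusted p = 0.00229).

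Tgfa encodes TGF-alpha, which binds EGFR and, when overproduced in the mouse stomach, is known to enlarge the mucosa at the expense of parietal cells. Its probe set (10539692) lies on chromosome 6 from 86145410 to 86225151. Tgfa was at 9.9, 9.9, 9.8 and 9.8 in adenocarcinoma, against 10.7, 10.4, 10.4 and 10.7 in normal mucosa. The adenocarcinomas were almost level with each other and lay below every normal sample. The difference was -0.70 ± 0.102 (1.62-fold lower; limma adjusted p = 0.000902).

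The stretches before the start sites of these 3 lower ligands are shown because the genes moved in the same direction. RefSeq promoter sequences of assembly GRCm38.p6, another build than the positions above may have, were found for 6 of the 10 members, and the 250 bases before the start are printed here, for Egf before the gene's annotated outermost start. Capitals mark any match, on either strand, to the TATA box TATAAA, the CCAAT box, the AP-1 site TGACTCA, the cAMP response element TGACGTCA, the GC box GGGCGG or the E-box CACGTG.
Areg, chr5:91139349-91139598, plus strand: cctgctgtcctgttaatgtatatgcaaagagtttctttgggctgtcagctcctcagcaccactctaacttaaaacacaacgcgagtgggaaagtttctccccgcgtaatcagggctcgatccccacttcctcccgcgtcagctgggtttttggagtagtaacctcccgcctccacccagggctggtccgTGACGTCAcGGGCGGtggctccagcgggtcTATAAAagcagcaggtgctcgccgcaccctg
Tgfa, chr6:86194972-86195221, plus strand: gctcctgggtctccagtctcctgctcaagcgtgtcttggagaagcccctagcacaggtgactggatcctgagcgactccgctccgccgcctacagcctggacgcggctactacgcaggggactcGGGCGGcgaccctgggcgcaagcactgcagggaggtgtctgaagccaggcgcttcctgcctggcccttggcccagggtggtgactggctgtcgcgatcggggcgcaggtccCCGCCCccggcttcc
Egf, chr3:129755323-129755572, minus strand: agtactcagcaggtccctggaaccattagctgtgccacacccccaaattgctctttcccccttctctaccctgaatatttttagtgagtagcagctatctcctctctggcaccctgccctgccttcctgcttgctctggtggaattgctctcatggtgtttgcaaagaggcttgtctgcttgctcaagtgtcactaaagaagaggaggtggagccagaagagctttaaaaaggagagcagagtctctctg
The Areg window held a cAMP response element beginning 61 bases before the start, a GC box at 52 and a TATA box at 31, and these matches did not overlap. The Tgfa window held a GC box at 126 and another, on the opposite strand, at 15 bases before the start. The Egf window held none of the 6 motifs as spelled. Among 32851 such windows of 27025 genes, the cAMP response element stood in 1.55%, the TATA box in 12.4%, the GC box in 32.7%, the CCAAT box in 33.8%, the AP-1 site in 4.46% and the E-box in 6.02%. The matches describe letters and were not tested for binding.

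Most parietal cell markers, like these 3 ligands, were lower in adenocarcinoma. Of 8 parietal markers, 7 fell, among them both proton pump subunits Atp4a and Atp4b, with none at or below background on all arrays. Of 5 measured chief cell markers, all 5 fell, with list means of 7.72 to 8.80 in adenocarcinoma against 11.9 to 12.5 in normal mucosa. Of 5 pit cell markers, 4 fell, with list means of 9.58 to 12.5 in adenocarcinoma against 13.9 to 14.0 in normal mucosa. The part of these cells in the ligand values was not tested, and in bulk tissue fewer cells of a type and less RNA per cell cannot be told apart. With the arrays centred on general epithelium markers, Egf differed by -1.65, Areg by -1.125 and Tgfa by -0.9. Of those 4 markers, 2 (Epcam and Krt18) were themselves called higher in adenocarcinoma and none lower. Whether that centre follows the share of epithelium was not tested.

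Ereg encodes epiregulin, which binds EGFR and ERBB4 and is scarce in most resting tissues. Its probe set (10523175) lies on chromosome 5 from 91503648 to 91522672. Ereg was at 9.1, 8.3, 9.9 and 9.9 in adenocarcinoma, against 7.2, 7.0, 7.1 and 7.2 in normal mucosa. Every adenocarcinoma lay above every normal sample, and replicate 2 was well below the other adenocarcinomas. The means were 9.3 ± 0.77 and 7.12 ± 0.10 (SD, n = 4 each). The difference was 2.17 ± 0.321 (4.52-fold higher; limma adjusted p = 0.000977), and 380 of the 21626 genes had a larger one. Leaving out any 1 array, or changing any other setting tried, left it between 1.96 and 2.51.

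Hbegf encodes heparin-binding EGF-like growth factor, an EGFR and ERBB4 ligand induced by injury and known from macrophages and epithelium. Its probe set (10458340) lies on chromosome 18 from 36664586 to 36675454. Hbegf was at 10.4, 10.3, 10.5 and 10.4 in adenocarcinoma, against 9.8, 9.4, 9.5 and 10 in normal mucosa. The adenocarcinomas were nearly level and all above the normal samples, which spread more. The difference was 0.725 ± 0.136 (1.65-fold higher; limma adjusted p = 0.00353).

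Btc encodes betacellulin. Its probe set (10531274) lies on chromosome 5 from 91786287 to 91831939. Btc was at 10.5, 10.1, 9.3 and 9.9 in adenocarcinoma, against 9.5, 9.4, 9.5 and 9.7 in normal mucosa. Replicate 3 of the adenocarcinomas lay below every normal sample and the other adenocarcinomas above them. The difference of 0.425 ± 0.22 was not called (limma adjusted p = 0.143), with a 95% interval of -0.07 to 0.92. Without adenocarcinoma replicate 3 it passed, as given above.

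Nrg1 encodes neuregulin-1, the main ligand of ERBB3, made largely by mesenchymal and neural cells. Its probe set (10578045) lies on chromosome 8 from 32928500 to 33994616. Nrg1 was at 8.1, 7.5, 8.2 and 8.3 in adenocarcinoma, against 7.6, 7.4, 7.7 and 7.6 in normal mucosa. Replicate 2 of the adenocarcinomas lay among the normal samples, while the other adenocarcinomas lay above all of them. The difference of 0.45 ± 0.169 was not called (limma adjusted p = 0.059; 95% interval 0.07 to 0.83). Without adenocarcinoma replicate 2 it was 0.625 ± 0.105 with an adjusted p of 0.00338.

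Stromal and myeloid markers were also higher in adenocarcinoma, among them all 6 endothelial and 5 of 6 smooth muscle markers. All 7 fibroblast markers rose (list means 10.8 to 11.8 in adenocarcinoma against 8.01 to 8.24 in normal mucosa), as did all 6 measured macrophage markers (10.8 to 11.3 and 7.67 to 7.93) and all 4 neutrophil markers (8.75 to 9.65 and 6.93 to 7.25). Of 6 markers of Schwann cells and enteric glia, another known source of neuregulin-1, none rose and 1 fell, with list means of 7.32 to 7.68 in adenocarcinoma against 7.53 to 7.75 in normal mucosa. Of 8 markers of squamous forestomach, none passed the test as higher and 3 fell (7.34 to 7.80 and 7.40 to 7.90). Among these, the keratin gene Krt4 was at 10.7, 11.6, 8.8 and 7.5 in adenocarcinoma, against 7.8, 7.6, 7.8 and 7.7 in normal mucosa (limma adjusted p = 0.0665), so 3 of the 4 adenocarcinomas lay above every normal sample and 1 below. All 4 proliferation markers rose (10.1 to 10.9 and 9.03 to 9.35). No gene of these lists was at or below background on all 8 arrays. The part of these cells in the ligand values was not tested. With the arrays centred on epithelium markers, of which Epcam and Krt18 were themselves called higher, Ereg differed by 1.975 and Hbegf by 0.525, both called.

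**Figure D3:**
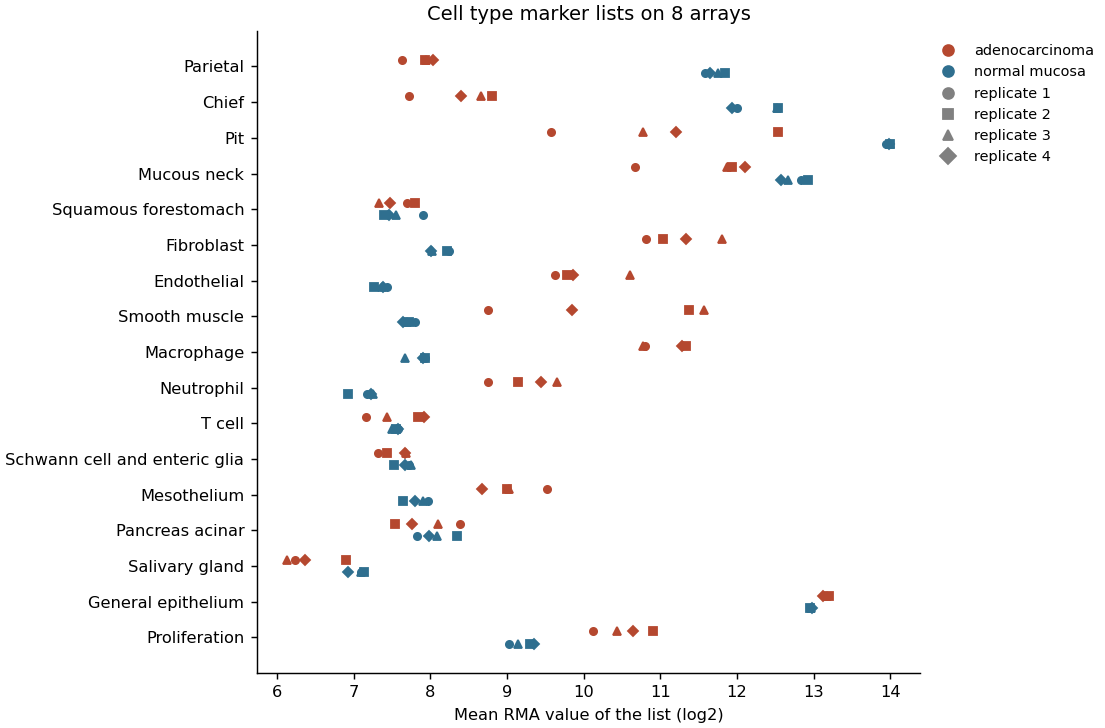
Mean RMA value (log2) of each cell type marker list on each array, adenocarcinoma above normal mucosa in each row, with a symbol for each replicate. The groups part widely for parietal, chief, pit, fibroblast, endothelial, smooth muscle, macrophage and neutrophil lists, less so for mucous neck, mesothelium, proliferation and salivary gland lists, and general epithelium lies at 13.1 to 13.2 in adenocarcinoma against 12.9 to 13 in normal mucosa.

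Ereg, Areg and Btc lie side by side on chromosome 5, in one cluster with Epgn, which encodes the EGFR ligand epigen. In the deposited table Ereg starts 39.4 kb after Epgn ends, Areg 46.0 kb after Ereg ends, and Btc 209 kb after Areg ends. Epgn was at 6.4, 6.7, 6.7 and 6.9 in adenocarcinoma, against 6.5, 6.4, 6.5 and 6.9 in normal mucosa. Those groups overlapped fully (0.10 ± 0.141, limma adjusted p = 0.58). The genes that flank the cluster, added for their position after their values were seen, were Mthfd2l and Parm1. Mthfd2l, an enzyme of mitochondrial folate metabolism, rose (1.52 ± 0.2, limma adjusted p = 0.000511), and Parm1 fell (-0.35 ± 0.1, limma adjusted p = 0.0231). The call of Parm1 was lost without normal mucosa replicate 1 (0.0645), 3 (0.051) or 4 (0.0556) and after centring on receptor genes (0.205).

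Whether neighbouring ligands shifted unequally was tested on their difference within each array, which does not change when a constant is added to an array. Its absolute size reflects probe sets as well as transcripts, so only the shift between groups is read. Ereg minus Areg was -1.1, -1.6, -0.2 and -0.5 in adenocarcinoma, against -3.5, -4.0, -4.2 and -4.1 in normal mucosa. The groups lay far apart, and the shift of 3.1 corresponded to an 8.57-fold change in the ratio of Ereg to Areg. This parting was fixed by the values of each gene. Every adenocarcinoma lay above every normal sample for Ereg and below every normal sample for Areg. The p of this pair thus adds nothing to those 2 calls. Ereg minus Btc averaged -0.65 ± 1.14 (SD, n = 4) in adenocarcinoma and -2.4 ± 0.0816 (SD, n = 4) in normal mucosa, a shift of 1.75. Areg minus Btc averaged 0.2 ± 0.535 in adenocarcinoma and 1.55 ± 0.252 in normal mucosa, a shift of -1.35. The groups did not overlap for any of these 3 pairs, and each gave a two-sided exact permutation p of 0.0286, the smallest that 4 against 4 arrays allows. These pairs share their genes, so the shift of each follows from the others and they are not separate results. Adjusted over the 6 pairs tested, the exact p was 0.0571 for each, which misses 0.05. The 3 ligand pairs could not have passed, however large their shifts, unless a receptor pair also reached the smallest p. No conclusion is drawn from that miss.

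**Figure D4:**
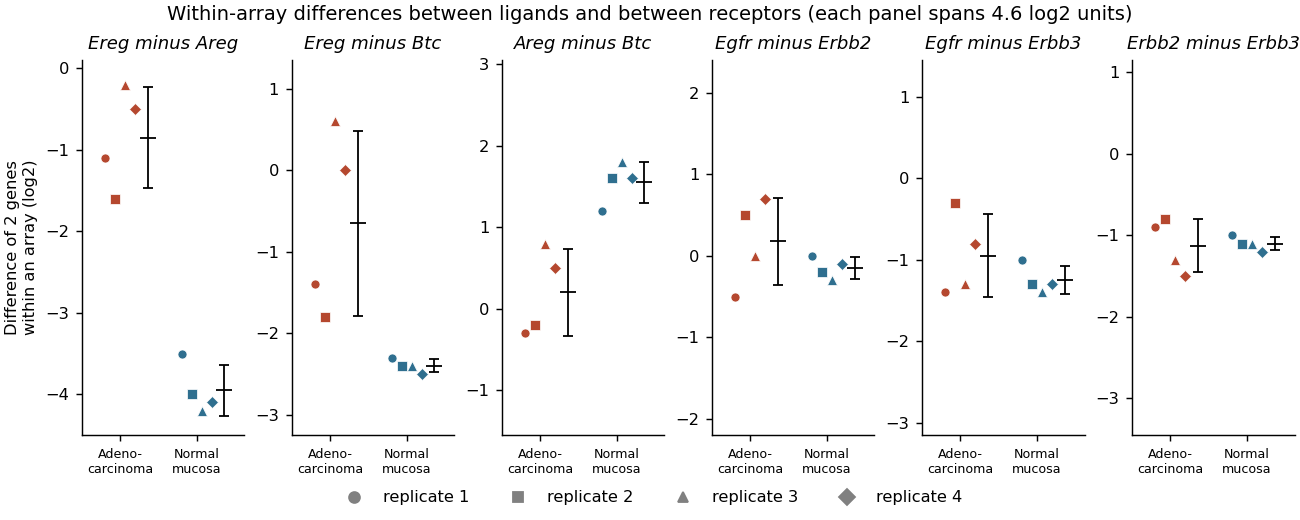
Difference of 2 genes within each array (log2 units) for 3 pairs of clustered ligands and 3 pairs of receptors, with group means and SD (n = 4) to the right of the points; every panel spans the same number of log2 units. The 3 ligand pairs part the groups, with shifts of 3.1, 1.75 and -1.35, and the 3 receptor pairs overlap.

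Egfr encodes the receptor shared by most of these ligands. Its probe set (10374366) lies on chromosome 11 from 16652206 to 16813912. Egfr was at 11.0, 11.6, 10.9 and 11.4 in adenocarcinoma, against 11.1, 10.7, 10.7 and 10.9 in normal mucosa. Adenocarcinoma replicates 2 and 4 lay above all normal samples, and replicates 1 and 3 among them. The difference of 0.375 ± 0.17 was not called (limma adjusted p = 0.101; 95% interval -0.01 to 0.76), though it passed without adenocarcinoma replicate 3, as given above.

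Erbb2, the receptor without a ligand, lies on chromosome 11 from 98273798 to 98299030 (probe set 10380896). It was at 11.5, 11.1, 10.9 and 10.7 in adenocarcinoma, against 11.1, 10.9, 11.0 and 11.0 in normal mucosa. The adenocarcinomas spread on either side of the normal samples, so the groups overlapped. The difference was 0.05 ± 0.159 (limma adjusted p = 0.815), and its 95% interval of -0.31 to 0.41 spans changes in either direction. No array stood at a level far above the others.

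Erbb3, the neuregulin receptor with a weak kinase, lies on chromosome 10 from 128005702 to 128026708 (probe set 10373467). It was at 12.4, 11.9, 12.2 and 12.2 in adenocarcinoma, against 12.1, 12.0, 12.1 and 12.2 in normal mucosa. The groups overlapped, and the difference was 0.075 ± 0.114 (limma adjusted p = 0.607; 95% interval -0.18 to 0.33). Erbb2 and Erbb3 were not called under any of the 21 alternatives tried. Between receptors, the shift was 0.325 for Egfr minus Erbb2 (two-sided exact permutation p = 0.343), 0.30 for Egfr minus Erbb3 (exact p = 0.4) and -0.025 for Erbb2 minus Erbb3 (exact p = 1). None of these pairs passed, and their groups overlapped.

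The genes spread differently within the groups. The SD among adenocarcinomas was larger than among normal samples for 6 members and smaller for 3, Areg, Tgfa and Hbegf. The median SD over the members was 0.269 in adenocarcinoma and 0.138 in normal mucosa, beside 0.189 and 0.129 over all genes. Among the adenocarcinomas, no single replicate was highest or lowest throughout. Replicate 2 was lowest for Ereg, Areg, Hbegf, Nrg1 and Erbb3 and highest for Egfr, and replicate 1 was highest for Btc, Erbb2 and Erbb3.

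For each called member, the 3 genes with the most similar profile over the 8 arrays were found by the root mean square difference between profiles centred on their own mean. This likeness mixes the difference between groups with the pattern within them, and is a description. The nearest to Egf were Btn3a3 (0.0829 log2 units), Cckbr (0.0927), the gastrin and cholecystokinin receptor, and Mllt3 (0.117). The nearest to Areg were Ccdc107 (0.141), Piwil4 (0.145) and Pbld (0.149), and those to Tgfa were Setd8 (0.0707), Fam96b (0.0781) and Pou2f3 (0.0857), a transcription factor of tuft cells. Ereg, whose SD among adenocarcinomas is the largest of the called members, was nearest to Adam8 (0.187), 1190003J15Rik (0.22) and Capsl (0.245). Adam8, a membrane protease of leukocytes and tumour cells, was at 9.6, 9.0, 10.9 and 10.5 in adenocarcinoma, against 8.1, 7.8, 8.2 and 8.0 in normal mucosa. Like Ereg it was lowest in replicate 2 among the adenocarcinomas, as were 1190003J15Rik and Capsl. Picking genes by likeness to Ereg favours such a shared pattern. Hbegf was nearest to Nab2 (0.0829), a corepressor of EGR transcription factors, Gm10561 (0.105) and Rhbdf2 (0.127), which encodes iRhom2, a carrier of the sheddase ADAM17.

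The rest of the pathway was read from 5 lists. Among the 5 other EGF family members, none rose and Nrg3 and Erbb4 fell slightly, beside 18.2% higher and 23.6% lower of all genes. With so few genes, this count is not read as a result about the family. Erbb4 (-0.35 ± 0.111, limma adjusted p = 0.0331) was at 6.7 to 7.0 in adenocarcinoma against 7.0 to 7.4 in normal mucosa, and Nrg3 (-0.325 ± 0.114, adjusted p = 0.0467) at 6.0 to 6.4 and 6.3 to 6.6. These groups overlapped. Cyclic loess and centring on receptor genes each ended both calls, and the count of 2 was 0 without adenocarcinoma replicate 1, 2 or 3 or normal mucosa replicate 1, 3 or 4. Of 10 genes of ligand shedding, 5 rose and none fell (median 0.725, against -0.1 over all genes), beside 18.2% higher and 23.6% lower of all genes. The rises were in the protease genes Adam8 (1.975 ± 0.362, adjusted p = 0.00316) and Adam19, the iRhom genes Rhbdf1 and Rhbdf2, and Timp3 (4.075 ± 0.356, adjusted p = 5.08e-05). Timp3 encodes an inhibitor of ADAM17, made by fibroblasts and muscle, and was at 10.4 to 12.2 in adenocarcinoma against 7.3 to 7.8 in normal mucosa. The main sheddases Adam10 and Adam17 were not called, with differences of 0 and 0.025.

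Of 25 measured relay proteins between receptor and nucleus, 5 rose and 4 fell (median 0.15), shares near the 18.2% higher and 23.6% lower of all genes. The 4 lower include Akt2, whose probe set read here is placed on chromosome 11, not where that gene lies. Whether it measures Akt2 was not tested. The adaptor Gab2 (1.825 ± 0.254, limma adjusted p = 0.000716) and the phospholipase Plcg1 (0.90 ± 0.186, adjusted p = 0.00566) rose most. The regulatory PI3-kinase subunit Pik3r1 (-0.90 ± 0.0948, adjusted p = 0.00015) fell most. The split moved to 3 higher and 6 lower after median centring and to 9 higher and 1 lower after centring on receptor genes. These moves went in the same direction as the calls over all genes. With cyclic loess it was 4 higher and 5 lower, while the calls lower over all genes fell from 5099 to 3239. Without normal mucosa replicate 4 the number lower was 2.

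Of 19 negative regulators of receptor and ERK signalling, 9 rose and none fell (median 0.475), beside 18.2% higher and 23.6% lower of all genes. The inhibitors Spred1 (1.075 ± 0.106, limma adjusted p = 0.000105) and Spry4 (1.05 ± 0.22, adjusted p = 0.00615) rose most. Spry4 was at 8.9, 8.8, 9.9 and 9.3 in adenocarcinoma, against 8.3, 8.2, 8.0 and 8.2 in normal mucosa. Its groups did not overlap, as was true of Spred1. The number higher was 7, with 1 lower, after median centring, and 11 after centring on receptor genes; without adenocarcinoma replicate 3, 2 were lower.

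Of 22 genes known to respond to ERK, 10 rose and 2 fell (median 0.50), beside 18.2% higher and 23.6% lower of all genes. The rises include Etv1 and Etv5, whose probe sets read here are placed on chromosomes 13 and 10, not where these genes lie. Whether those probe sets measure the genes was not tested. The urokinase receptor gene Plaur (2.0 ± 0.244, limma adjusted p = 0.000355) and the activin antagonist Fst (1.6 ± 0.216, adjusted p = 0.000605) rose most. The transcription factor genes Jun (-0.95 ± 0.227, adjusted p = 0.0111) and Atf3 (-0.80 ± 0.215, adjusted p = 0.018) fell. Jun was at 10.3, 10.6, 11.5 and 10.9 in adenocarcinoma, against 11.6, 11.7, 11.9 and 11.9 in normal mucosa, so its groups came close without overlapping. Atf3 was not called after centring on receptor genes (0.0702) or without normal mucosa replicate 1 (0.0516) or 4 (0.0526), and the number lower was then 1 in each case. The split was 10 higher and 4 lower after median centring and 12 higher and 1 lower after centring on receptor genes.

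**Figure D5:**
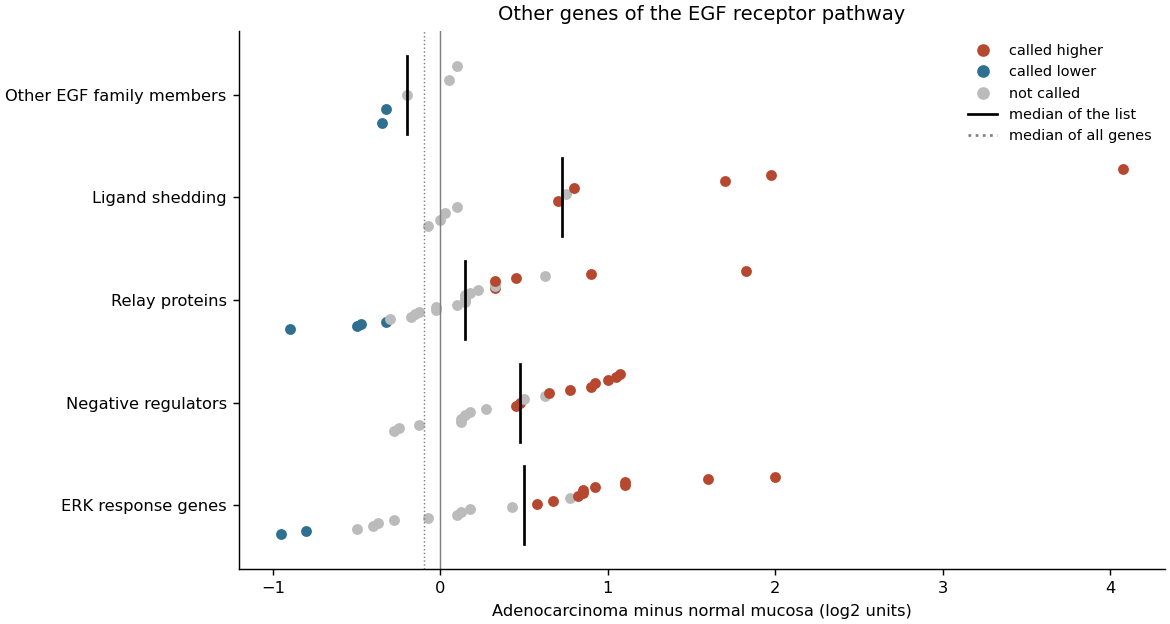
Difference of each gene of the 5 lists, adenocarcinoma minus normal mucosa, in log2 units, coloured by its limma call, with the median of each list and of all genes. Shedding genes, negative regulators and ERK response genes have medians of 0.725, 0.475 and 0.50, beside -0.1 for all genes; the numbers called move with array scaling, from 3 to 9 relay proteins higher.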

How the data were processed

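Total RNA of 8 mouse samples was labelled with biotin and measured on Affymetrix arrays, per the labels' protocols. The authors deposited log2 values computed with RMA, per the submitters' processing notes; its version and the genome build were not given in the sources used here. All 284448 values had at most 1 decimal (tolerance 1e-06), and the 2 deposited tables held the same values. Groups and replicate numbers come from the sample titles.

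Of 28350 gene probe sets, 24975 carried 1 symbol and stood for 21626 genes, each read from whichever probe set was brightest on average, and dim genes were kept. The groups were compared with limma 3.58.1 in R 4.3.3 (lmFit and eBayes, two-sided, Benjamini-Hochberg over all genes), and errors of differences are the model's SE. Pairs of genes were compared by a two-sided exact permutation test over 70 assignments of the arrays. The code was tested on simulated data. Precision is limited by the 4 arrays in each group. The genes, the lists, the tests and the rule for named genes were chosen with earlier results of these data known. Named are all members, up to 2 called genes of largest change per list and direction, the 3 genes most like each called member, and cell type markers. Adam10, Adam17, Adam19, Rhbdf1, Epgn, Mthfd2l, Parm1, Akt2, Etv1 and Etv5 were added after their values were seen. The rule also takes 1 gene that is not reported here.

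Alternatives were median centring, cyclic loess, 32 units added before log2, a filter that dropped the dimmest 30% of genes, averaging the probe sets of a gene, all probe sets as features, eBayes with trend and robust, array weights, a replicate block, leaving out each array, an adjusted p under 0.01, seeded noise of plus or minus 0.05 and an exact permutation test. Centring on receptor genes and on epithelium markers was added after seeing the data. Motifs were sought in RefSeq promoters of assembly GRCm38.p6. No batch was tested, as scan dates were not used here. Figures were drawn with matplotlib 3.10.9.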

Additional observations from a re-analysis of the deposited data

Results flagged for a closer look

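In a few groups of 4 arrays, 1 array stood apart from the other 3 by most of the group's range. Normal mucosa replicate 3 had the lowest Egf value, 8.8, where the other normal samples were all at 9.1. Adenocarcinoma replicate 4 had a Timp3 value of 10.4 where the other adenocarcinomas were at 11.9 to 12.2, and adenocarcinoma replicate 3 a Gab2 value of 11.3 where the others were at 10.1 to 10.2. These were 3 of 46 groups checked, and chance alone flags about 1 in 20.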

How the results depend on the processing

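Egf, Areg, Tgfa, Ereg and Hbegf kept their direction and their call in limma under all 21 alternatives, with ranges of -1.65 to -1.273, -1.125 to -0.748, -0.9 to -0.523, 1.956 to 2.508 and 0.525 to 0.902 and adjusted p of at most 0.00232, 0.00971, 0.00799, 0.00658 and 0.026. By the two-sided exact permutation test each had p = 0.0286, the smallest possible with 4 arrays a group. The number of members lower was 3 throughout. The number higher lay between 2 and 4 when 1 array was left out, and was 3 after cyclic loess, centring on receptor genes and with a replicate block. Same-numbered samples deviated from their group means with correlations across genes of -0.175 to 0.158. For replicates 2 and 3 these (0.0948 and 0.158) were above those with other numbers (at most 0.0885 and 0.04). For replicates 1 and 4 they were not, so this check cannot tell whether same-numbered samples are paired. With the replicate block Nrg1 was called (0.45 ± 0.117, limma adjusted p = 0.0371). In that block the 6 pairs kept their shifts, with adjusted exact sign-flip p of 0.25 for the 3 ligand pairs. The sign-flip test had only 16 assignments, too few for any pair to pass whatever its values. No conclusion is drawn from it. When 1 array was left out, the pair shifts were 2.88 to 3.35 (Ereg minus Areg), 1.33 to 2.13 (Ereg minus Btc), -1.55 to -1.18 (Areg minus Btc), 0.15 to 0.55 (Egfr minus Erbb2), 0.0833 to 0.45 (Egfr minus Erbb3) and -0.133 to 0.1 (Erbb2 minus Erbb3). Of 200 recounts of the pathway lists, 30 moved by over 1.5 times. Beyond those given with each list, other EGF family members lower numbered 1 with 32 units added, a replicate block or seeded noise and 0 without the dimmest 30% of genes; array weights gave 4 ERK response genes and 1 negative regulator lower. At an adjusted p under 0.01 there were 3 relay proteins higher and 2 lower, 4 negative regulators higher, 6 ERK response genes higher and none lower, and no other EGF family member lower. With 32 units added, 1 of the 3 genes nearest to Egf and 1 of those nearest to Areg stayed among the 3. Over all genes, the 5099 calls lower became 2975 to 5456 when 1 array was left out, and an adjusted p under 0.01 gave 2376 higher and 1912 lower. The causes of these moves were not tested. Low signals near background, such as those of Nrg3 and Epgn, limit what these arrays can show.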
